A study of Rattus norvegicus and Bos taurus with 12 samples.

Results

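Mesenchymal transition transcription factors were taken as the 10 genes Twist1, Twist2, Snai1, Snai2, Zeb1, Zeb2, Prrx1, Tcf21, Runx1 and Runx2, and were found by their symbols, in any case, in both expression tables of the series. Of the 7052 genes listed for adult rat ventricular myocytes (ARVM), 9 were members. Of the 2115 genes listed for bovine cardiac fibroblasts (Cfib), 3 were members, namely TWIST2, SNAI1 and TCF21, and these 3 were also listed for ARVM. Zeb2 was listed in neither table, and no alias of any member was listed. Both tables hold only genes that had been selected for a difference between their groups, so a member without a row was not analysed here and nothing follows about its level.

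RNAseq of 12 libraries was analysed, 3 in each of 4 groups. Freshly isolated ARVM were ventricular myocytes released by collagenase from hearts of healthy adult Sprague Dawley rats, without treatment, and their libraries are called con4, con5 and con6 after the labels. PH-CM ARVM were myocytes of the same strain kept for 7 days in PH-CM, which is serum-free medium conditioned by right ventricular Cfib of calves with pulmonary hypertension (PH), and their libraries are called ha2, ha209 and ha211. CO Cfib and PH Cfib were low passage cultures of right ventricular fibroblasts from control (CO) calves and from calves that developed PH as neonates under reduced atmospheric pressure. The treatment labels of all 12 libraries instead name serum from cows of either altitude, while the study's methods describe the groups as given here. The ARVM groups differed in medium and in time in culture together, and these cannot be told apart, since no ARVM cultured without PH-CM were analysed here. The Cfib of each group came from 3 calves. For ARVM no source used here states that libraries of a group came from separate animals or cultures, so the ARVM p-values measure the spread between these libraries, which may be technical. The libraries were bulk RNA, in which fewer cells of a type and less RNA per cell cannot be told apart.

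Epithelial to mesenchymal transition is a program in which cells lose junctions and polarity and gain motility and matrix production, and it is directed by a small set of DNA binding repressors and activators. SNAI and ZEB proteins are zinc finger repressors that bind E-boxes in promoters such as that of the E-cadherin gene, and TWIST proteins are basic helix-loop-helix (bHLH) factors that bind E-boxes as dimers. In the heart some of these factors act when epicardial cells give rise to fibroblasts and mural cells, with TCF21 marking and directing the fibroblast lineage. PRRX1 acts in mesenchyme, and RUNX1 and RUNX2 direct blood and bone formation.

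The promoter sequences of the members were examined because SNAI and ZEB proteins bind the E-box CAGGTG and RUNX proteins bind TGTGGT, so that a member's promoter may hold the motif of its own family. RefSeq promoter windows of 300 bases around a transcript start (rat assembly GRCr8, not the rn6 build of the reads) were found for 9 of the 10 members, with 2 windows for Runx2, whereas Snai2 had none. The start lay at the annotated 5′ end of the gene for Twist1, Twist2, Snai1, Zeb2 and Tcf21, and inside the gene for Zeb1 (by 502 bases), Prrx1 (1306), Runx1 (138975) and Runx2 (3780 and 81962), so these windows are not the gene's outermost promoter. The E-box CAGGTG, searched on both strands and so also read as CACCTG, was in 2 of these 10 windows, and 18.8% of all 33469 rat windows held it. The motif TGTGGT, also read as ACCACA, was in 1 of the 10 windows against 17.3% of all windows. The 3 windows with a match are printed 5′ to 3′ on the strand of the gene, with the matches in capitals.
Snai1 (chr3:176667226-176667525, plus strand): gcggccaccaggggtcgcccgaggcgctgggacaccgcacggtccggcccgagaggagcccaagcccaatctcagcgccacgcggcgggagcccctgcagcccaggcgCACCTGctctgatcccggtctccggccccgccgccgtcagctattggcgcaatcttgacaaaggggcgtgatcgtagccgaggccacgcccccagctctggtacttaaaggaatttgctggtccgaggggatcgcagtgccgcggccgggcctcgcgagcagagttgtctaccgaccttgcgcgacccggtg
Zeb1 (chr17:56810604-56810903, minus strand): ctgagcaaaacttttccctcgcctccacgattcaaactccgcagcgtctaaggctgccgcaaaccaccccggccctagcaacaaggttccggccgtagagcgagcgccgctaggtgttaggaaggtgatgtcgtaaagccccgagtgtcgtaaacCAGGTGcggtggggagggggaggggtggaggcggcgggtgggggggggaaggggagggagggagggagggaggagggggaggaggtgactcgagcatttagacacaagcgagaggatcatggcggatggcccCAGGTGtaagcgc
Runx2 (chr9:23664808-23665107, plus strand): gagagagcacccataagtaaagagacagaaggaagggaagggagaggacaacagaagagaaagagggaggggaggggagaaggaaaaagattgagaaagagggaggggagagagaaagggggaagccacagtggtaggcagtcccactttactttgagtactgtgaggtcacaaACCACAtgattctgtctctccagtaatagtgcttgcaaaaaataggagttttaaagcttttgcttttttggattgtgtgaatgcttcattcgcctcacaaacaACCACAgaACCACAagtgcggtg
The E-box of Snai1 began 142 bases before the start of its window's transcript. Those of Zeb1 began 95 bases before and 37 bases after it. The RUNX motifs of the Runx2 window printed, the first along the gene, began 76 bases before it and 27 and 35 bases after it, and the other Runx2 window held none. A match is a run of letters and not a measured site, and binding was not measured here.

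In ARVM, 8 of the 9 listed members were higher after 7 days in PH-CM than in freshly isolated cells and Zeb1 alone was lower (limma on log2(value + 1), adjusted p under 0.05). All 9 passed this threshold, here termed called, as did 97.6% of the listed genes; 53.9% of the listed genes were called higher and 43.7% lower. The values of the groups did not overlap for any member, as was the case for 100% of the listed genes. The median log2 fold change of the 9 members was 3.73, also with Twist2 at its lower bound, against 0.37 for all listed genes, whose middle 50% ran from -0.67 to 1.53. The size of the low members' changes depended on the pseudocount, and the member median was 2.12 with a pseudocount of 10 and 3.87 with one of 0.1. A called log2 fold change of at least 1 was found for 8 of 9 members and for 32.3% of the listed genes, while 0 of 9 members and 16.0% of the listed genes had a called value of at most -1. ARVM levels are normalized counts, which are reads divided by the size factor of the library and are not scaled by gene length, so levels are compared here between libraries and not between genes.

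Both TWIST genes rose. Twist1, a bHLH factor of cranial and limb mesenchyme, had normalized counts of 9.50, 31.1 and 54.8 in freshly isolated con4, con5 and con6 and of 387, 331 and 397 in PH-CM ha2, ha209 and ha211. The freshly isolated libraries differed from each other by more than counting error, with a coefficient of variation of 71.2% where 18.5% would come from counting, while the PH-CM libraries lay close together. The mean went from 31.8 ± 22.6 to 372 ± 35.4 (SD, n = 3 each), a log2 fold change of 3.81 (SE 0.55, limma adjusted p = 0.000340), and the value was 3.14 without freshly isolated con4, which had the lowest level. Twist2, its close paralog with a role in dermal mesenchyme, had no reads in any freshly isolated library and 47, 29 and 49 reads in PH-CM ha2, ha209 and ha211. These were normalized counts of 35.5, 25.0 and 41.5, or 34.0 ± 8.33 (SD, n = 3). Twist2 was at least 28.7-fold higher in PH-CM, taking 3 reads over the freshly isolated group as the floor (limma adjusted p = 7.48e-06). Twist2 was thus detected in 3 of 3 libraries of one group and 0 of 3 of the other.

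The SNAI genes also rose, from different starting levels. Snai1, a zinc finger repressor of epithelial genes, had normalized counts of 42.7, 61.1 and 18.6 in freshly isolated con4, con5 and con6 and of 478, 380 and 489 in PH-CM ha2, ha209 and ha211. The lowest PH-CM library was well above the highest freshly isolated one. The mean went from 40.8 ± 21.3 to 449 ± 59.8 (SD, n = 3 each), a log2 fold change of 3.57 (SE 0.40, limma adjusted p = 9.16e-05). Snai2, or Slug, a repressor known from neural crest migration, had 0, 0 and 5 reads in freshly isolated con4, con5 and con6 and 28, 22 and 37 reads in PH-CM ha2, ha209 and ha211. Its normalized counts were 0, 0 and 5.17 against 21.2, 19.0 and 31.3, so all reads of the freshly isolated group came from con6. The ratio of the pooled reads, scaled by the size factors, was 12.0 with a 95% counting interval of 4.96 to 38.0, and the log2 fold change was 3.73 (SE 0.73, limma adjusted p = 0.00169). Without freshly isolated con6 the log2 value was 4.60, and Snai2 was then at least 12.4-fold higher in PH-CM. With all libraries it was 1.54 with a pseudocount of 10 and 5.96 with one of 0.1.

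Zeb1, a zinc finger and homeodomain repressor that acts on the same E-boxes as the SNAI proteins, moved the other way. Its normalized counts were 1673, 1369 and 1544 in freshly isolated con4, con5 and con6 and 1113, 1225 and 1052 in PH-CM ha2, ha209 and ha211. Every PH-CM library was below every freshly isolated one, and the gap was small beside those of the other members. The mean fell from 1529 ± 153 to 1130 ± 87.8 (SD, n = 3 each), a log2 fold change of -0.43 (SE 0.09, limma adjusted p = 0.00287), which is inside the middle 50% of the listed genes. Zeb1 rested on 1057 to 1495 reads per library, the most of any member, and stayed lower under each of the 14 alternatives tried, scalings included, between -0.51 and -0.37. The annotation places uncharacterized genes on top of Zeb1 and of Prrx1, and Supt3h on top of Runx2, and how the counting treated strand is not given in the sources used here. None of these overlapping genes was listed.

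**Figure D1:**
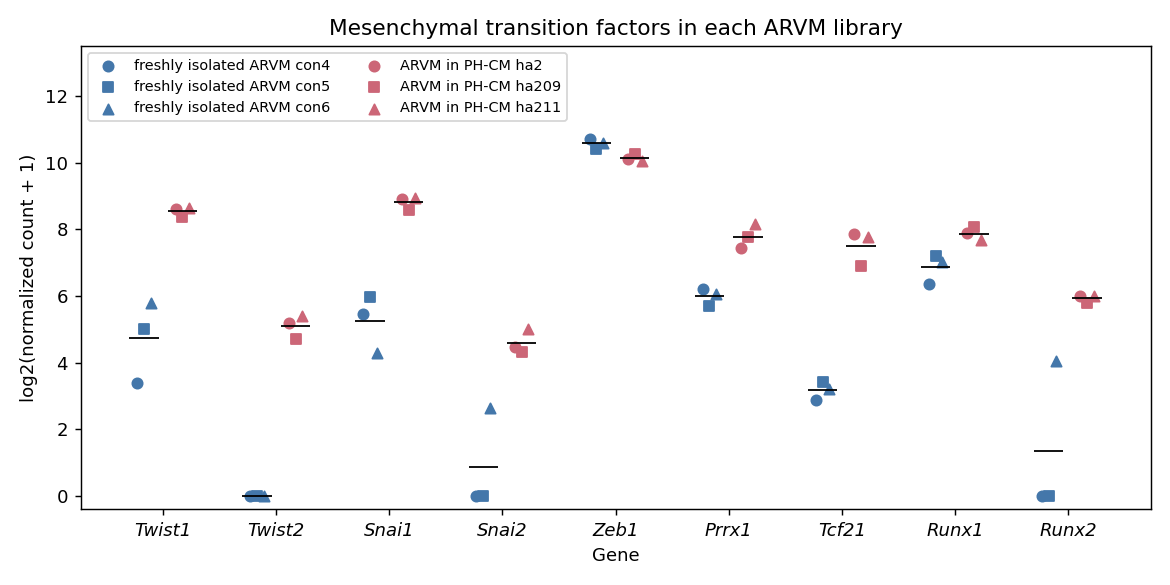
Normalized counts of the 9 listed members on a log2(value + 1) axis in each ARVM library, with a symbol for each library and a bar at the group mean of the log2 values. Of the 9 genes, 8 have all 3 PH-CM libraries above all freshly isolated ones, Zeb1 has them below, and freshly isolated con6 is the only one of its group above 0 for Snai2 and Runx2.

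Both mesenchymal lineage factors rose. Tcf21, the bHLH factor of epicardium and cardiac fibroblasts, had normalized counts of 6.33, 9.64 and 8.26 in freshly isolated con4, con5 and con6 and of 233, 117 and 218 in PH-CM ha2, ha209 and ha211. The freshly isolated values rested on 4, 9 and 8 reads, and the PH-CM libraries differed among themselves, with ha209 the lowest. The mean went from 8.08 ± 1.66 to 189 ± 62.8 (SD, n = 3 each), a log2 fold change of 4.34 (SE 0.36, limma adjusted p = 1.59e-05), or 3.41 with a pseudocount of 10. Prrx1, a paired-type homeodomain factor of limb and craniofacial mesenchyme, had normalized counts of 72.8, 51.4 and 66.1 in freshly isolated con4, con5 and con6 and of 172, 215 and 283 in PH-CM ha2, ha209 and ha211. It rose from 63.4 ± 10.9 to 223 ± 56.0 (SD, n = 3 each), a log2 fold change of 1.78 (SE 0.26, limma adjusted p = 0.000329).

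The RUNX genes rose by unequal amounts. Runx1, a runt domain factor of blood stem cells, had normalized counts of 80.7, 146 and 128 in freshly isolated con4, con5 and con6 and of 234, 266 and 204 in PH-CM ha2, ha209 and ha211. Its change was the smallest of the rises, from 118 ± 33.6 to 235 ± 30.9 (SD, n = 3 each), with a log2 fold change of 1.02 (SE 0.25, limma adjusted p = 0.00549). Runx2, the runt domain factor of osteoblasts, had 0, 0 and 15 reads in freshly isolated con4, con5 and con6 and 84, 63 and 74 reads in PH-CM ha2, ha209 and ha211. The normalized counts were 0, 0 and 15.5 against 63.5, 54.4 and 62.6, and the spread between the PH-CM libraries, 8.40%, was below the 11.7% that counting alone would give. The pooled reads gave a ratio of 10.2 with a 95% counting interval of 6.05 to 18.5, and the log2 fold change was 4.58 (SE 1.02, limma adjusted p = 0.00327). That value was 5.93 without freshly isolated con6, when Runx2 was at least 31.4-fold higher in PH-CM, and 3.91 without con4 or without con5. With all libraries it was 2.36 with a pseudocount of 10 and 6.80 with one of 0.1, and the log2 of the ratio of the group means was 3.54.

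All 9 ARVM members were called with each library left out in turn, and with edgeR and DESeq2 on the reads. An exact permutation test of 3 against 3 libraries (two-sided) gave p = 0.1 for each member in both tables, which is the smallest p that this design allows. The adjusted p-values were computed over genes that had been selected for a difference and hold for that selection only.

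**Figure D2:**
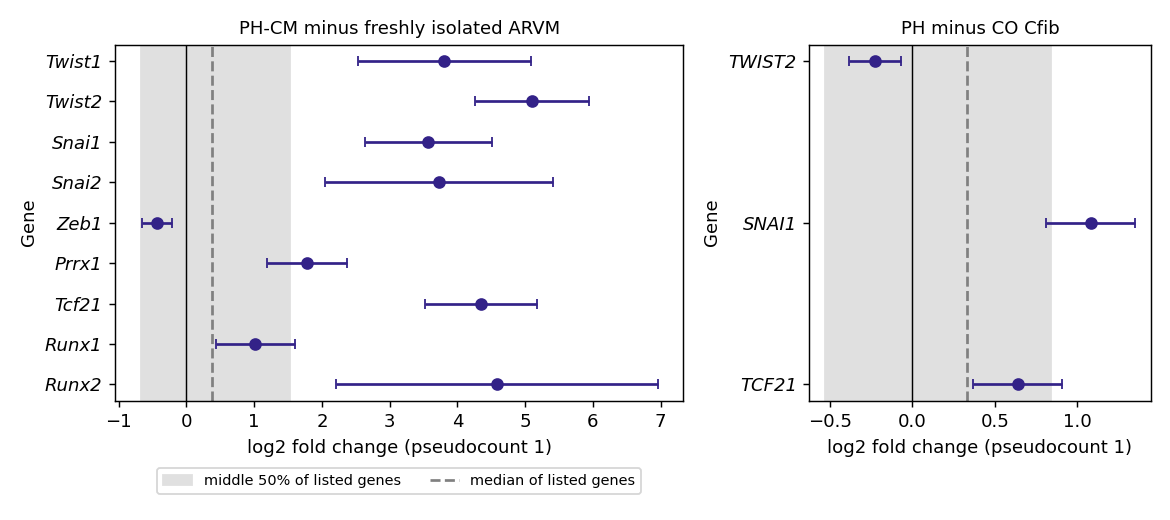
The log2 fold change of each listed member with its 95% interval from limma, in ARVM (left, 9 genes) and Cfib (right, 3 genes), on axes of different scale, with the median (dashed) and the middle 50% (grey) of all listed genes. In ARVM 7 of the 9 members lie above the grey band, and Runx1 at 1.02 and Zeb1 at -0.43 lie within it; in Cfib SNAI1 at 1.08 lies above the band.

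The members followed the libraries in a common order in part. PH-CM ha209 was the lowest of its group for 6 of the 9 members, namely Twist1, Twist2, Snai1, Snai2, Tcf21 and Runx2, and the highest for Zeb1 and Runx1. PH-CM ha211 was the highest for 5 members. The share of all listed genes with ha209 lowest or ha211 highest was not computed, so nothing particular to the members follows from these counts. Library ha209 was also the lowest of the PH-CM group in the summed fibroblast, myeloid and epicardial markers described next. It was the highest in the summed endothelial, erythroid and (with Des included) smooth muscle and pericyte markers, and in between for cardiomyocyte markers.

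Cell type markers also differed between the ARVM groups, in both directions. The 14 listed of 15 cardiomyocyte markers, Myh6 among them, were all lower in PH-CM, with a summed normalized count of 1820580 to 1854778 in freshly isolated ARVM and 141436 to 171525 in PH-CM ARVM. The 11 listed of 12 fibroblast markers, including Thy1 and Pdgfra, were all higher, from 2007 to 2690 up to 82320 to 123525, and Mfap5 was at 0 in all freshly isolated libraries. The 13 listed of 13 myeloid markers were all higher, from 301 to 435 up to 8362 to 12789, and so were the 5 listed of 8 epicardial and mesothelial markers, from 178 to 239 up to 3008 to 5341. Of 10 endothelial markers 9 were lower and 1 higher, with sums of 11129 to 13556 against 4564 to 5268. Of 10 smooth muscle and pericyte markers 6 were higher and 4 lower, with sums of 70322 to 77376 against 53527 to 63446. Desmin (Des), which cardiomyocytes also express, made up most of this sum, and the other 9 markers summed to 6765 to 7763 in freshly isolated ARVM and 11601 to 14087 in PH-CM ARVM, higher in every PH-CM library. The 3 listed of 5 erythroid markers were lower, from 1984 to 2371 down to 3.39 to 23.3, and 1 of 9 lymphocyte markers, Cd79b, was listed and lower. The mean sum of fibroblast markers in PH-CM ARVM was 41.3-fold that of freshly isolated ARVM. The collagen genes Col3a1, Col1a2 and Col1a1 made up most of it, at PH-CM means of 42453, 19902 and 17090 of 100392. Single fibroblast markers rose by between 1.23 for Gsn and 9.95 for Thy1 on the log2 scale. The mean sum of myeloid markers was 28.5-fold, or 12.8-fold without the lysozyme gene Lyz2. The group means of the members with reads in both groups changed between 0.739-fold for Zeb1 and 23.4-fold for Tcf21. Per 1000 normalized counts of fibroblast markers, Tcf21 had 2.35, 3.71 and 4.12 in freshly isolated con4, con5 and con6 and 2.44, 1.43 and 1.76 in PH-CM ha2, ha209 and ha211, so that its groups overlapped on this scale. Per the same 1000 counts Snai1 had 15.9, 23.5 and 9.26 against 5.01, 4.62 and 3.96, lower in each PH-CM library than in each freshly isolated one. Zeb1 (527 to 769 against 8.52 to 14.9), Prrx1 (19.8 to 32.9 against 1.80 to 2.61) and Runx1 (30.0 to 63.8 against 1.65 to 3.23) were also lower in each PH-CM library. The groups overlapped for Twist1 (3.53 to 27.3 against 3.21 to 4.06), Snai2 (0 to 2.57 against 0.222 to 0.253) and Runx2 (0 to 7.72 against 0.507 to 0.666). None of these 8 members rose in mean by as much as the 41.3-fold of the fibroblast sum, so a fall on this scale was set by the divisor. In PH-CM ARVM that divisor was mostly collagen reads, and values with a divisor free of collagen genes were not computed. How many of all listed genes fall on this scale was not computed either, and nothing about the members follows from these values. This scale was chosen after the values were seen. The part of fibroblasts, myeloid cells or epicardial cells in the members' values was not tested.

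**Figure D3:**
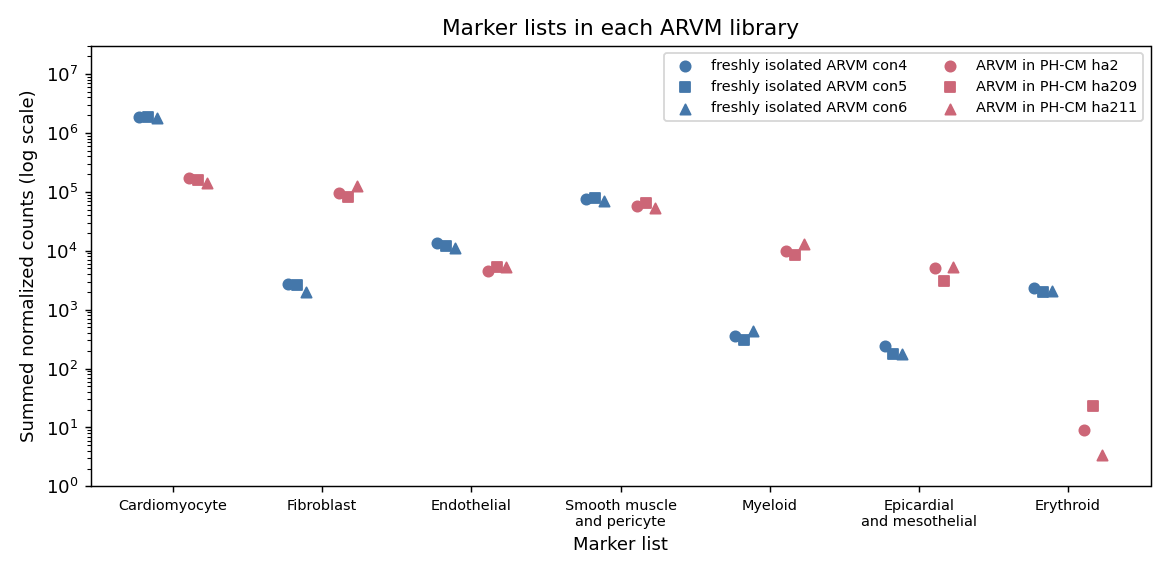
Summed normalized counts of the listed genes of 7 cell type marker lists in each ARVM library, on a log axis, with a symbol for each library. Fibroblast, myeloid and epicardial sums are higher in every PH-CM library and cardiomyocyte, endothelial, smooth muscle and erythroid sums are lower in every PH-CM library, but the smooth muscle sum is carried by Des and is higher in every PH-CM library without it.

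The genes that work with these factors moved in both directions. Of 9 bHLH partners and inhibitors, 5 were listed for ARVM, 2 called higher and 2 lower, and Hand2 at 0.30 was not called, with a median log2 fold change of 0.30 against 0.37 for all listed genes. Id4, an inhibitor that binds bHLH factors without DNA binding, fell from 204 ± 34.3 to 96.0 ± 16.6 normalized counts, with a log2 fold change of -1.08. Id2, of the same family, rose by 0.98 and Tcf4, an E protein that dimerizes with TWIST, fell by 0.95 on the log2 scale. Of 7 RUNX partners, 3 were listed, 2 called higher and 1 lower, and their median was 0.99. The corepressor Runx1t1 rose by 2.39 and the corepressor Tle3 by 0.99, and the linear fold of Runx1t1 was 1.52 times larger without freshly isolated con6. Cbfa2t3, a paralog of Runx1t1, had 45.9, 28.9 and 21.7 normalized counts in freshly isolated ARVM and 0, 15.5 and 3.39 in PH-CM, a log2 fold change of -2.93 (limma adjusted p = 0.0158) that was lost with a pseudocount of 0.1 (limma adjusted p = 0.0513), and it was -1.90 without PH-CM ha2 and -3.92 without ha209. Of 12 SNAI and ZEB corepressors and regulators, 6 were listed, 3 of them higher and 3 lower, at a median of 0.12. Ajuba, a LIM protein that bridges SNAI1 to its corepressors, rose by 2.22, the deacetylase Hdac1 rose by 1.03 and the Polycomb protein Bmi1 fell by 0.99 on the log2 scale.

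Most of the listed TGF-beta genes and other mesenchymal factors were called higher. Of 10 TGF-beta ligands, receptors and SMADs, which induce SNAI and ZEB genes in many cells, 7 were listed for ARVM, 5 of them higher and 2 lower, at a median log2 fold change of 0.96. Tgfb3 rose from 179 ± 50.6 to 3509 ± 602 normalized counts (SD, n = 3 each), a log2 fold change of 4.31, and the ligand Tgfb1 and coreceptor Tgfbr3 rose by 1.21 and 1.14. Of 15 other mesenchymal and epicardial transcription factors, 11 were listed, 9 of them higher and 2, Meox1 and Scx, lower, at a median of 2.93. With a library left out 8 to 9 were called higher and 0 to 2 lower, with 0 lower without freshly isolated con6 and 1 lower without con5, ha2, ha209 or ha211. Osr1, a zinc finger factor of intermediate mesoderm, had 6.33, 0 and 0 normalized counts in freshly isolated ARVM and 272, 194 and 299 in PH-CM, a log2 fold change of 7.02, or 7.98 without freshly isolated con4. Prrx2, the paralog of Prrx1, rose by 4.82, or by 4.03 without con4, and the forkhead factor Foxs1 by 3.90 on the log2 scale.

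All 20 listed of 22 mesenchymal genes were called higher, with a median log2 fold change of 4.72, led by the collagen genes Col1a1 at 8.07 and Col1a2 at 7.13 and the collagen crosslinking enzyme Lox at 7.65, which was 8.72 without freshly isolated con6. Col1a1 had 44.3, 72.8 and 73.3 normalized counts in freshly isolated ARVM and 14965, 15324 and 20981 in PH-CM. Some collagen genes are also in the fibroblast marker list. Of 18 epithelial genes, 7 were listed, 6 called higher and 1 lower, with a median of 3.76, or 3.45 with the 2 genes that had no reads in freshly isolated ARVM, Cldn3 and Cldn4, at their lower bounds. The simple epithelial keratin Krt18 had 11.1, 0 and 10.3 normalized counts in freshly isolated ARVM and 1125, 558 and 1165 in PH-CM, a log2 fold change of 7.45 that was 8.07 without con4 and 6.27 without con5, and its partner Krt8 had one of 6.50. The tight junction gene Cldn1 had reads in freshly isolated con5 alone, at a level of 5.36, and 119, 68.2 and 61.8 in PH-CM ha2, ha209 and ha211, with a log2 fold change of 5.44, or 6.33 without con5. Cdh1, the classical SNAI1 and ZEB1 target, was not listed for ARVM. Of 13 skeletal genes grouped around RUNX2, 4 were listed, 3 of them higher and 1 lower. Their median was 2.73, or 2.51 with Dlx5, which had no reads in freshly isolated ARVM, at its bound. Regulation of these genes by RUNX2 was not tested. The matrix protein genes Spp1 and Mgp rose by 3.93 and 2.87, and Dlx5, a homeodomain factor of bone, was at least 4.44-fold higher on 19 reads over the PH-CM group. The gene called lower was the alkaline phosphatase gene Alpl. It fell from 289 ± 19.3 to 57.0 ± 12.8 normalized counts (SD, n = 3 each), a log2 fold change of -2.35.

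**Figure D4:**
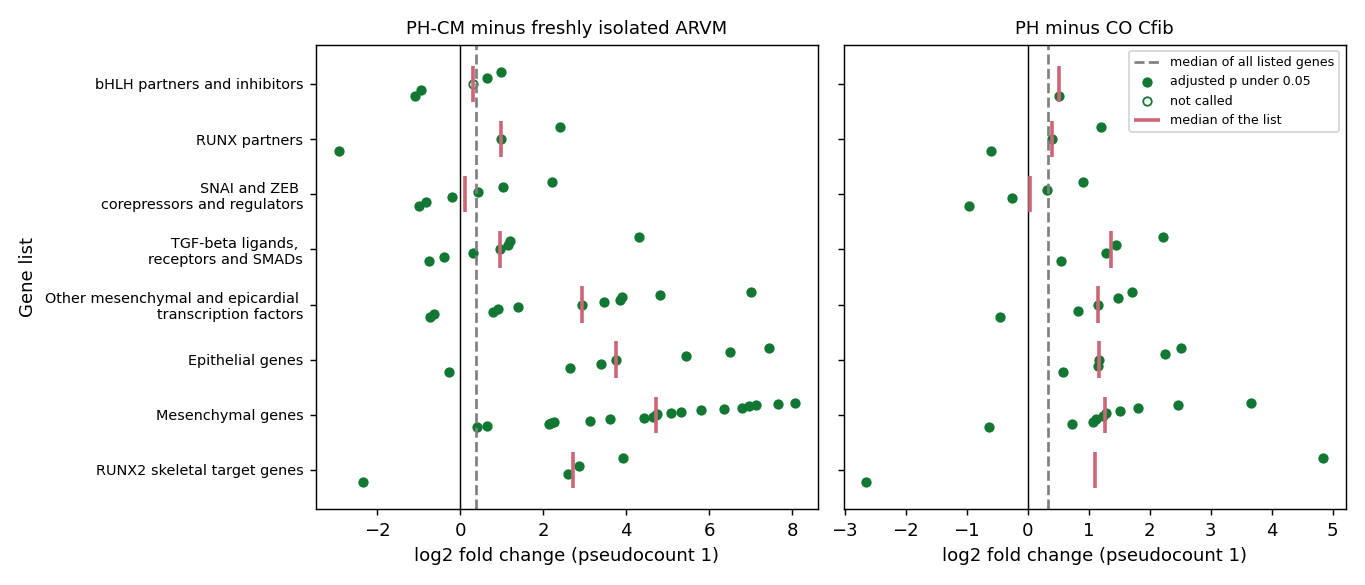
The log2 fold change of every listed gene of 8 pathway lists in ARVM (left) and Cfib (right), with filled points for genes past an adjusted p of 0.05, a red bar at the median of each list and a dashed line at the median of all listed genes, which is 0.37 in ARVM and 0.33 in Cfib. Mesenchymal and epithelial genes lie far to the right in ARVM, with medians of 4.72 and 3.76, and the bHLH partners lie around the median of all genes.

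In Cfib, SNAI1 and TCF21 were higher in PH than in CO and TWIST2 was lower. All 3 were called, as were 97.5% of the 2115 listed genes. Of the listed genes, 58.2% were called higher and 39.4% lower, and the groups did not overlap for any of the 3, as for 100% of the listed genes. Median of ratios scaling changed the split of called genes from 1230 higher and 833 lower to 840 higher and 869 lower and shifted the median gene by -0.27 on the log2 scale, and all 3 members kept their directions and calls. The sizes depended on the processing. Over 13 alternatives, scalings included, the log2 fold change ran from 0.37 to 0.69 for TCF21 and from -0.49 to -0.13 for TWIST2. For SNAI1 it ran from 0.27 to 1.58 over 12 alternatives. Values for Cfib were deposited as a length-scaled signal that may be FPKM or TPM, and the depth behind it is unknown.

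SNAI1 had a signal of 1.02, 1.04 and 1.07 in CO Cfib 1, 2 and 3 and of 2.86, 4.03 and 3.18 in PH Cfib 1, 2 and 3. The CO libraries were almost equal, and the PH libraries differed among themselves by less than their distance from CO. The mean went from 1.05 ± 0.0251 to 3.35 ± 0.605 (SD, n = 3 each), a log2 fold change of 1.08 (SE 0.11, limma adjusted p = 0.000193). That value was 0.27 with a pseudocount of 10 and 1.58 with one of 0.1. A called log2 fold change of at least 1 was found for 1 of 3 members and 19.7% of the listed genes (at most -1 for 0 of 3 and 14.3%). TCF21 had a signal of 9.35, 11.6 and 11.7 in CO Cfib 1, 2 and 3 and of 19.5, 16.6 and 16.4 in PH Cfib 1, 2 and 3. It rose from 10.9 ± 1.34 to 17.5 ± 1.71 (SD, n = 3 each), with a log2 fold change of 0.64 (SE 0.11, limma adjusted p = 0.00190). TWIST2 had a signal of 12.0, 12.2 and 12.3 in CO Cfib 1, 2 and 3 and of 9.92, 10.7 and 10.1 in PH Cfib 1, 2 and 3. It fell from 12.2 ± 0.185 to 10.2 ± 0.417 (SD, n = 3 each), with a log2 fold change of -0.23 (SE 0.07, limma adjusted p = 0.0144), and the call was lost without PH Cfib 1 (limma adjusted p = 0.0607) and without PH Cfib 3 (limma adjusted p = 0.0574). The spread between PH Cfib libraries was small over all genes, with a median coefficient of variation of 5.01% against 13.7% in CO.

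**Figure D5:**
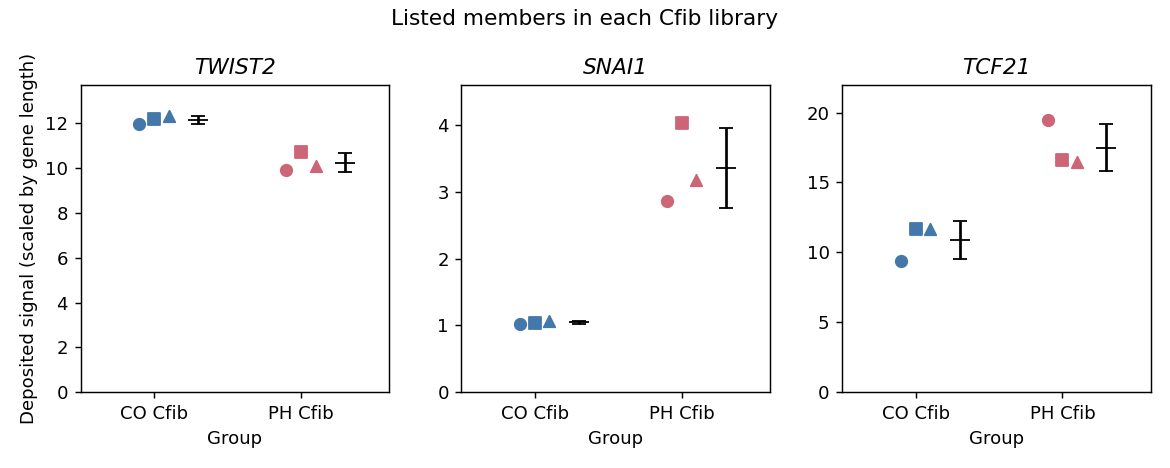
Deposited signal, scaled by gene length, of TWIST2, SNAI1 and TCF21 in each Cfib library, with each axis starting at 0, a symbol for each library, and the mean with its SD (n = 3) beside each group. PH libraries lie above CO libraries for SNAI1 and TCF21 and below them for TWIST2, with means of 10.2 against 12.2 for TWIST2.

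Since the Cfib signal is scaled by gene length, levels can be set side by side between genes. In CO Cfib the signal of TWIST2 was above that of TCF21 in each of the 3 libraries, and in PH Cfib the order was turned in each of the 3. The ratio of the TCF21 signal to the TWIST2 signal, which does not depend on the scaling of the library, was 0.782, 0.956 and 0.950 in CO Cfib 1, 2 and 3 and 1.96, 1.55 and 1.62 in PH Cfib 1, 2 and 3. Its mean was 0.896 ± 0.0986 in CO and 1.71 ± 0.221 in PH (SD, n = 3 each). Since TCF21 was higher and TWIST2 lower in every PH library than in every CO library, this ratio had to separate the groups. An exact permutation test of the log2 ratio (two-sided) could therefore only give p = 0.1, the smallest possible, and adds nothing to the values of the 2 genes. This ratio was chosen after its values were seen. SNAI1 had the lowest signal of the 3 members in every Cfib library.

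The genes around these factors in Cfib were fewer, since fewer were listed. Of the 9 bHLH partners only ID2 was listed, with a log2 fold change of 0.51. Of 7 RUNX partners 3 were listed, with RUNX1T1 at 1.20, TLE1 at -0.60 and TLE3 at 0.39, the last of which lost its call with the median of ratios. Of 12 SNAI and ZEB corepressors and regulators 4 were listed, 2 of them higher and 2 lower (1 lower without PH Cfib 3), at a median of 0.03. The Polycomb methyltransferase EZH2 fell from 13.8 ± 2.28 to 6.54 ± 0.563 in signal (SD, n = 3 each) and AJUBA rose by 0.91 on the log2 scale, whereas FBXL14, a ubiquitin ligase subunit that targets SNAI1, had a value of 0.31 and lost its call with the median of ratios. All 4 listed of 10 TGF-beta genes were higher, with a median of 1.36. TGFB3 had a signal of 4.21, 5.14 and 4.34 in CO Cfib 1, 2 and 3 and of 25.0, 25.2 and 24.0 in PH Cfib 1, 2 and 3, a log2 fold change of 2.21. The inhibitory SMAD7 had a log2 fold change of 1.28 and the receptor gene TGFBR1 one of 1.44, and TGFBR1 lost its call without PH Cfib 1 and without PH Cfib 3. The signal of TGFBR1 was 30.4, 29.8 and 8.39 in CO Cfib 1, 2 and 3, and its value was 0.87 without CO Cfib 3.

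Of 15 other mesenchymal and epicardial factors 5 were listed for Cfib, 4 of them higher and 1 lower, at a median log2 fold change of 1.15, led by OSR1 at 1.71, FOXS1 at 1.48 and SOX4 at 1.15. Of 22 mesenchymal genes 10 were listed, 9 of them higher and 1 lower, at a median of 1.26, led by the matricellular gene POSTN at 3.66, LOX at 2.47 and fibronectin FN1 at 1.81. CO Cfib 3 stood apart from CO Cfib 1 and 2, with a LOX signal of 40.4 against 169 and 138 and an FN1 signal of 156 against 582 and 469, and without it the values were 1.84 for LOX and 1.23 for FN1. All 5 listed of 18 epithelial genes were called higher, with a median of 1.17. KRT18 had a signal of 0.0518, 0 and 0 in CO Cfib 1, 2 and 3 and of 3.34, 5.83 and 5.49 in PH Cfib 1, 2 and 3, KRT8 was listed at 0 in all CO libraries, and KRT19 rose by 2.25 on the log2 scale. CDH1, the E-cadherin gene and classical target of SNAI1, was named after its values were seen. Its signal was 0.658, 0.122 and 0.152 in CO Cfib 1, 2 and 3 and 1.96, 1.68 and 1.93 in PH Cfib 1, 2 and 3, a rise from 0.311 ± 0.301 to 1.85 ± 0.152 (SD, n = 3 each) with a log2 fold change of 1.15 (limma adjusted p = 0.000680). Of the RUNX2 skeletal genes, 2 of 13 were listed and went opposite ways, with MGP, an inhibitor of calcification, at 4.83 and ALPL, the alkaline phosphatase of mineralizing bone, at -2.65.

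Marker lists in Cfib moved as well. The 4 listed of 12 fibroblast markers were higher in PH, with a summed signal of 2195 to 2907 in CO and 7512 to 7858 in PH. The 4 listed of 8 epicardial and mesothelial markers, KRT19 and MSLN among them, were all higher, with sums between 6.94 and 12.5 in CO and between 70.7 and 72.2 in PH. The 6 listed of 13 myeloid markers (5 higher, 1 lower, 2 at 0 in all CO libraries) summed to between 11.2 and 13.8 in CO and between 17.2 and 19.0 in PH. The 5 listed of 10 smooth muscle and pericyte markers (4 higher, 1 lower) summed to between 21.7 and 26.3 in CO and between 31.6 and 32.5 in PH. The endothelial marker ESAM, 1 of 10 markers, was lower, and no cardiomyocyte, lymphocyte or erythroid marker was listed. The part of other cells in the values of SNAI1, TCF21 and TWIST2 was not tested.

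The 3 members listed in both tables can be set side by side, with the tables normalized separately and no test made between them. Snai1 was higher in both comparisons, at 3.57 in ARVM and 1.08 in Cfib on the log2 scale, and Tcf21 was higher in both, at 4.34 and 0.64. These sizes are not on a common scale, since the pseudocount weighs more on the low Cfib signal. With a pseudocount of 0.1 Snai1 was at 3.61 in ARVM and 1.58 in Cfib, and with one of 10 at 3.26 and 0.27. Twist2 was higher in PH-CM ARVM, where the freshly isolated libraries had no reads, and lower in PH Cfib at -0.23.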

How the data were processed

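RNAseq libraries of rat ARVM (6) and bovine Cfib (6) were analysed. The authors depleted ribosomal RNA, aligned reads to rn6 and bosTau8 with HISAT2 and StringTie, normalized with DESeq2, and deposited only genes with a p-value under 0.05 and a value above 1 in a condition. For ARVM the authors deposited a signal in which each read count had been divided by the library's size factor (0.632 to 1.32); 100% of values were whole reads within 0.01, giving 12122463 to 18842171 reads per library over the listed genes. For Cfib the deposited signal is length-scaled, and FPKM or TPM was not settled.

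Each table was fitted in limma 3.58.1 under R 4.3.3, with a trended eBayes, on log2(value + 1), adjusted by Benjamini-Hochberg over the listed genes at a threshold of 0.05. Fold changes of low genes on this scale depend on the pseudocount: they understate the change of genes at or near 0 in a whole group, and can exceed the ratio of group means where libraries of a group differ. Marker sums without 1 gene were added after the values were seen. On the ARVM reads, edgeR 4.0.16 (quasi-likelihood, TMM) and DESeq2 1.42.0 were alternatives, as were other pseudocounts, a minimum mean, the median of ratios, no trend, each library left out, a replicate block and averaged PH libraries; edgeR with the authors' size factors was added after the data were seen. Scripts were tested on simulated data. Counting intervals and floors (3 reads over the group) cover counting error only.

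Named were all members and, per pathway list, up to 3 called genes with the largest absolute log2 fold change; other names, markers among them, illustrate a list or, for genes without reads, a bound, and were chosen after their values were seen. Members and lists were chosen with earlier results of these data known. Genes were matched by symbol.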

Additional observations from a re-analysis of the deposited data

How the results depend on the processing

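The 12 member values were recomputed under 161 alternatives in all, of which 0 turned a direction and 4 lost a call, those being TWIST2 without PH Cfib 1, without PH Cfib 3 and with the PH Cfib libraries averaged, and TCF21 with these averaged. Averaging the PH Cfib libraries left 1038 called genes (529 higher, 509 lower) in place of 2063. It left 1 called member, SNAI1, in place of 3. Averaging leaves 1 sample in an arm of 3 calves, and the members' folds stayed at -0.23, 0.64 and 1.09. An average keeps the fold nearly unchanged whatever the spread between libraries, so these folds do not show why calls were lost. The part of sample number and of the small spread between PH Cfib libraries in the lost calls was not tested. Pseudocounts of 0.1 and 10 moved 3 and 4 of 9 ARVM members and 0 and 1 of 3 Cfib members by over 1.5 times, and 7 and 9 of 24 other named ARVM genes and 4 and 10 of 21 in Cfib; no member lost its call. With a library left out, called genes ranged from 6452 to 6695 in ARVM and from 1910 to 2052 in Cfib, and called members from 9 to 9 in ARVM and from 2 to 3 in Cfib. Called ARVM genes numbered 6815 with edgeR, 6820 with edgeR and the authors' size factors and 6668 with DESeq2, each with 9 members. A minimum mean of 50 (ARVM) or 5 (Cfib) kept 6 and 2 members, all of them called. With a replicate block 1983 Cfib genes and 3 members were called. No source used here states that equal replicate numbers pair the calves, so the numbers were not taken as pairs. The deviations of libraries of equal number correlated at 0.258, 0.0312 and 0.259, which does not settle the question. No paired analysis was possible because the ARVM groups share no replicate number. Low reads of Twist2, Snai2, Runx2 and Tcf21 in freshly isolated ARVM limit the precision of their fold changes.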
